A study of Rattus norvegicus with 16 samples.

Results

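Small RNA libraries of the SHR and BN-Lx rat strains were compared in pairs over 6 tissues, to find miRNA arms whose level differed between the strains in the same direction across the body. The comparison used 12 of the 16 libraries of the series, 6 of SHR and 6 of BN-Lx, with 1 library per strain from each of brain, heart, kidney, liver, spleen and testis. SHR is the inbred spontaneously hypertensive rat, and BN-Lx is an inbred Brown Norway rat that carries the polydactyly-luxate syndrome. All donors were labelled as adult males, with no treatment, transgene or deletion, and the whole organs had been frozen in liquid nitrogen. Per the methods of the study all tissues of a strain came from 1 rat, so strain, animal and library cannot be told apart, and a p-value over the 6 pairs measures only how far the tissues moved together. The other 4 libraries, livers of further rats of the same strains (2 per strain), entered no test over the 6 tissues and were used only as a second look at arms already described.

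A miRNA is cut from a folded precursor, the hairpin, whose 5′ and 3′ arms can each give a mature strand of about the length that fits an Argonaute protein. Which mRNAs a strand represses depends mostly on its seed, the bases near its 5′ end, so strands of different hairpins that share a seed can act on the same targets, whereas the strands of a single hairpin usually do not. Many miRNAs are strongly tied to a cell type, such as mir-124 to neurons, mir-122 to hepatocytes, mir-1 and mir-133a to striated muscle and mir-142 and mir-223 to blood cells, and a whole-organ library therefore also records which cells it contained. The strains founded a recombinant inbred panel in which traits of SHR, among them high blood pressure, are mapped to the genome.

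The mature strands on which the description turns are printed from RefSeq (assembly GRCr8), 5′ to 3′, with the seed in capitals (bases 2 to 8). The first set holds 8 strands among those that lay on the same side in all 6 tissues, chosen because their values are described in most detail.
mir-191-5p: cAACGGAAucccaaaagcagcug
mir-3559-5p: uGACAGACuuaguacuacauga
mir-146a-5p: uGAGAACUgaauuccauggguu
mir-369-5p: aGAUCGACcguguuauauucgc
mir-376b-3p: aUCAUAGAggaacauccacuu
mir-667-3p: uGACACCUgccacccagcccaa
mir-338-3p: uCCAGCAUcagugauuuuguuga
mir-138-1-5p: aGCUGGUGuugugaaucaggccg

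The second set holds strands with a large difference in 1 or a few tissues.
mir-34a-5p: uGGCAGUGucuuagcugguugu
mir-34c-5p: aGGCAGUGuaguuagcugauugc
mir-183-5p: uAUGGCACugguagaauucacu
mir-182: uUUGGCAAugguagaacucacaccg
mir-21-5p: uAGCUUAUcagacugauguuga
mir-30a-3p: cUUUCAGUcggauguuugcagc
mir-130a-3p: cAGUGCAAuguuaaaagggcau
mir-322-3p: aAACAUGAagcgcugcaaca

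Of 24 arms looked up, 23 had a mature strand in RefSeq, and these carried 22 different seeds. Only mir-34a-5p and mir-34c-5p shared a seed, GGCAGUG. The 2 arms that lay on the lower side with at least 10 reads in every library, mir-191-5p and mir-3559-5p, had unrelated seeds, AACGGAA and GACAGAC.

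The 12 libraries held 6361646 reads on 392 hairpins, and 696 hairpin arms had at least 1 read. Depth ran from 403453 to 1064894 reads outside testis, but the testis pair held only 26880 reads in BN-Lx against 29131 in SHR. A read count of 10 in testis is therefore a far larger share of its library than in brain. Levels are given as reads and as scaled read counts, which are the reads of an arm divided by the mean over the arms of known hairpins of that library after its 3 most abundant arms were left out. Marker miRNAs of brain, liver, heart, spleen and testis were highest in the labelled tissue in both strains, while mir-192 and mir-194, listed for kidney, were highest in liver and mir-204 in testis. The BN-Lx kidney library held more reads of testis markers than the SHR kidney library: mir-202 had 48 against 1 read, mir-741 had 103 against 0 and mir-742 had 47 against 1.

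No arm was called different between SHR and BN-Lx across the tissues. Of 458 arms with enough reads to test, 0 passed an adjusted p of 0.05 in edgeR's quasi-likelihood test with tissue as a block (0% called), and the smallest Benjamini-Hochberg adjusted p was 0.997. At an unadjusted p under 0.05 there were 7 arms, 1.53% of those tested, 4 higher and 3 lower in SHR. DESeq2 and limma also called 0 arms, with 20 unadjusted each and smallest adjusted p of 0.212 and 0.793. The median log2 difference over all arms was -0.0065, and 228 of 458 arms (49.8%) had a positive estimate.

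The 95% interval of the log2 difference had a median reach of 1.11 to either side of the estimate, or 2.17-fold. It lay within 2-fold either way for 109 arms (23.8%) and within 4-fold for 323 arms (70.5%). Simulated counts took the means and library sizes of these libraries and 1 common dispersion for all arms. Of 457 simulated arms 265 were unchanged and the others were changed in every tissue. The same test called 22.4% of arms changed 2-fold, 82.3% of those changed 4-fold and 98.4% of those changed 8-fold. With fewer changed arms the adjusted threshold is stricter, so these shares are upper figures for a setting with few differences. A difference of 2-fold or less in every tissue was thus mostly not detectable at this design.

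**Figure D1:**
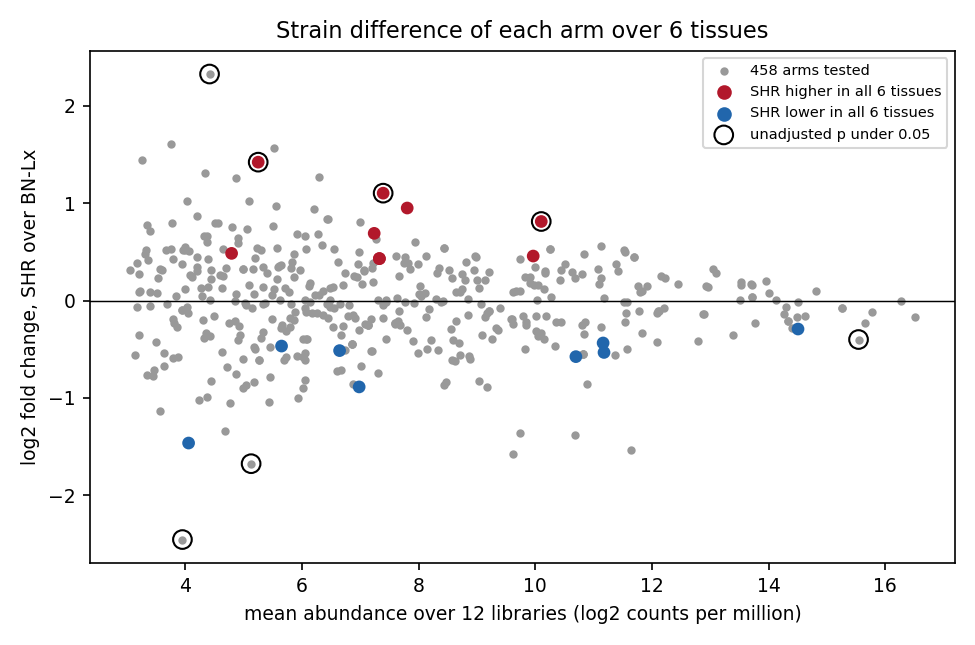
Log2 difference between SHR and BN-Lx over the 6 tissues from the blocked edgeR fit (y axis, SHR minus BN-Lx) against the mean abundance of each arm (x axis, log2 CPM), for the 458 arms tested, with the 9 arms higher in SHR in all 6 tissues in red, the 8 lower in blue and the 7 with an unadjusted p under 0.05 circled. The points spread evenly around 0, where the median is -0.0065, the spread narrows towards abundant arms, and 0 arms passed the adjusted threshold.

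Few arms kept to one side in every tissue. On scaled read counts SHR was higher in all 6 tissues for 9 of 458 arms (1.97%) and lower in all 6 for 8 arms (1.75%). By contrast, 125 arms were higher in 3 tissues. Of the 101 arms with at least 10 reads in each of the 12 libraries, 0 were higher in SHR in all 6 tissues (0%) and 2 were lower (1.98%), namely mir-191-5p and mir-3559-5p.

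On scaled read counts mir-191-5p, from an abundant and widely expressed miRNA, was lower in SHR in each pair, by little in 5 and most in kidney. With the scaling factors of the edgeR test (TMM) instead, brain and testis were slightly higher in SHR. The side of these small gaps therefore depends on the scaling. Its hairpin lies at chr8:113614360-113614450 on the plus strand of RGSC3.4, the build of the files, whose gene annotation was not used here. In BN-Lx the scaled read count was 13.3 in brain, 10.96 in liver, 38.6 in spleen, 15.6 in heart, 18.6 in testis and 15.2 in kidney. In SHR it was 12.3, 9.46, 33.7, 14.5, 16.4 and 7.81 in the same order. Spleen was highest in both strains, and the strain ranges overlapped widely, since the tissues spanned a wider range than the strains. The log2 ratio of SHR to BN-Lx was between -0.21 and -0.11 in 5 tissues and -0.96 in kidney, where 11563 reads stood against 7071. Over the 6 pairs edgeR gave a log2 difference of -0.29 (SE 0.18, 95% interval -0.68 to 0.092, adjusted p 0.997), and without the kidney pair it was -0.20. The exact sign-flip permutation p was 0.03125, two-sided, which is the smallest that 6 pairs allow and follows from choosing an arm that is lower in every pair.

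In the further livers mir-191-5p lay on the other side. Its scaled read count was 6.40 and 7.61 in the BN-Lx rats, against 10.6 and 10.2 in the SHR rats, and the strains did not overlap, with SHR the higher. The log2 difference in those livers was 0.73 (SE 0.14, 95% interval 0.33 to 1.13, edgeR adjusted p 0.304). Of 303 arms tested in those livers 0 were called (0%), with 40 at an unadjusted p under 0.05, and without SHR liver replicate 3 edgeR called 10, among them mir-1-3p, mir-206-3p and mir-742-3p but not mir-191-5p. That fit held 1 SHR library, which was assumed to vary like the BN-Lx pair.

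mir-3559-5p was the other arm lower in every SHR library at this depth on scaled read counts. Its hairpin lies at chrX:92588220-92588334 on the minus strand of RGSC3.4, and it was tied to its name through equal read numbers in another deposited table. BN-Lx had 405 reads in brain, 3038 in liver, 636 in spleen, 246 in heart, 23 in testis and 1396 in kidney, and SHR had 261, 2544, 339, 385, 14 and 926. Liver held most reads of this arm in both strains, and the heart pair was nearly level after scaling. Heart was not lower in SHR when total reads were the scale. The log2 ratio was -0.019 in heart, between -0.36 and -0.27 in brain, liver and spleen, and -0.85 and -0.87 in kidney and testis. The blocked estimate was -0.44 (SE 0.25, 95% interval -0.97 to 0.098, edgeR adjusted p 0.997), again with the exact permutation p of 0.03125 that the choice of the arm fixes. Among the further rats the log2 liver difference was 0.10 with TMM (95% interval -0.31 to 0.52), so 0 of these 2 arms kept their side in that fit. With the outlier-corrected mean as the scale it was -0.060. The scaled read counts overlapped there, at 7.71 and 9.74 in the BN-Lx rats against 8.63 and 8.11 in the SHR rats.

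The following arms of the 17 were picked out after their values were seen, and each had fewer than 10 reads in at least 1 library. mir-146a-5p, a miRNA of immune cells that is induced by inflammatory signalling and dampens it, was higher in SHR in each pair. Its hairpin lies at chr10:28476368-28476462 on the minus strand of RGSC3.4. BN-Lx had 78 reads in brain, 371 in liver, 795.5 in spleen, 282.5 in heart, 2 in testis and 415 in kidney, and SHR had 84.5, 1014.5, 1227.5, 637.5, 9 and 501.5. Fractional values come from reads that matched more than 1 hairpin and were divided evenly. Liver and spleen showed the clear gaps, with log2 ratios of 1.35 and 1.26, while brain and heart gave 0.45 and 0.51 and kidney was level at 0.020. The estimate was 0.81 (SE 0.32, 95% interval 0.12 to 1.51), with an unadjusted edgeR p of 0.0254 and an adjusted p of 0.997. The further livers gave the same direction, 0.57 (95% interval 0.047 to 1.10), with scaled read counts of 1.36 and 1.57 in the BN-Lx rats, against 2.10 and 1.81 in the SHR rats, again without overlap.

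Other blood cell arms are given for comparison. mir-223-3p, a miRNA of granulocytes and monocytes, had a log2 difference of 0.099 (95% interval -0.32 to 0.52), and the summed leukocyte miRNAs (mir-142, mir-150, mir-155, mir-223 and the mir-146 pair), which include mir-146a itself, differed by 0.35 in liver, 0.10 in brain, 0.097 in spleen, -0.040 in heart, -0.036 in testis and -0.84 in kidney on the log2 scale. Fewer cells of a type and less RNA per cell cannot be told apart in whole-organ libraries.

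The Dlk1-Meg3 cluster, an imprinted locus on chromosome 6 whose miRNAs are expressed from the maternal copy and mainly in brain after birth, supplied mir-369-5p, mir-376b-3p and mir-667-3p. In brain their reads were 1210 against 1108, 185 against 170 and 1590 against 1538 in BN-Lx and SHR, with log2 ratios of 0.21, 0.21 and 0.28. Outside brain none of these arms had more than 16 reads in any library. mir-369-5p, for example, had 1 to 3 reads in each BN-Lx library outside brain and 3 to 9 in SHR. Over the cluster, 39 of 63 tested arms had a positive and 24 a negative estimate, with a median of 0.14 against -0.0065 for all arms, and 0 were called. The summed cluster was lower in SHR in liver, with 313 against 141 reads and a log2 ratio of -1.25, and at -0.75 in heart and -0.073 in brain. It was higher in spleen, testis and kidney, at 0.99, 0.43 and 0.62.

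The remaining arms that were higher in all 6 tissues were mir-338-3p, mir-484, mir-32-5p and the shared mature strand of mir-664-1 and mir-664-2. mir-338-3p, which is enriched in oligodendrocytes and supports their maturation, had 7060 reads in BN-Lx brain against 5700 in the SHR library, a log2 ratio of only 0.024, with the larger ratios of 0.98 in spleen and 1.10 in testis resting on 192 against 243 and 5 against 12 reads. mir-484, which RefSeq lists with a single mature strand, had 118 against 131 reads in brain and 88 against 128 in spleen, and its estimate was 0.69 (95% interval -0.067 to 1.45). The strands of mir-664-1 and mir-664-2 cannot be separated, since their reads were divided evenly, and count as 1 arm in effect. mir-32-5p had at most 28 reads in any library.

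On the lower side, mir-138-5p, a neuronal miRNA made from mir-138-1 and mir-138-2, was the most abundant member after mir-191-5p. For mir-138-1-5p BN-Lx had 18406.5 reads in brain against 13432.5 for SHR, a log2 ratio of -0.12, and in spleen 1188 stood against 431, a ratio of -0.83. The estimate was -0.53 (SE 0.26, 95% interval -1.10 to 0.035) for mir-138-1-5p and -0.58 for mir-138-2-5p, which share most of their reads and are uncertain as separate arms. Both estimates were also negative in the further livers, -0.46 and -0.65, with intervals that crossed 0.

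mir-203-5p, mir-547-3p, mir-339-3p and mir-9-3-3p were lower in all 6 tissues on small counts. mir-203-5p had at most 24 reads in a library, and mir-339-3p at most 36. mir-547-3p, of an X-linked cluster active in testis, had 52 reads in BN-Lx testis against 45 in the SHR library and was tied to its name through equal read numbers. mir-9-3-3p had 873.3 reads in BN-Lx brain against 530.7 in the SHR library, and fewer than 5 reads elsewhere, which are a split of reads among the mir-9 hairpins.

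Of the 17 arms, 13 could be tested in the further livers and 7 of these lay on the same side there, a comparison added after the data were seen. Over all arms tested in both sets, 142 of 288 (49.3%) did.

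**Figure D2:**
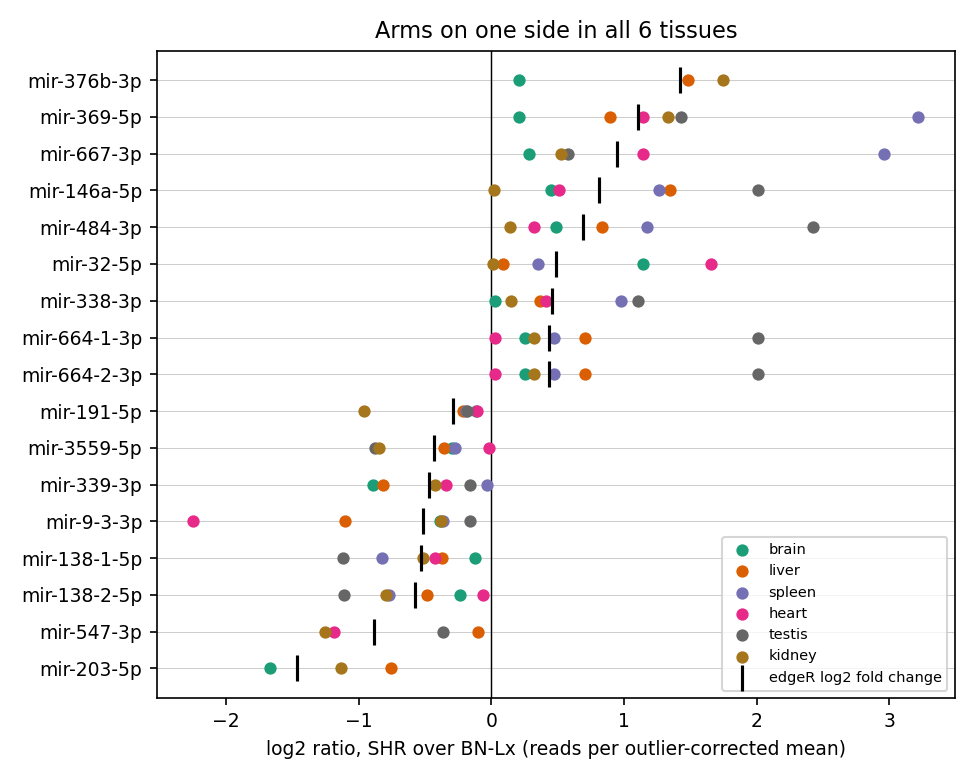
Log2 ratio of SHR to BN-Lx on scaled read counts (x axis) for the 17 arms that lay on one side in all 6 tissues (y axis), with a coloured point per tissue and a black bar for the edgeR estimate. Tissues in which a strain had 0 reads of the arm have no point, mir-484 appears as mir-484-3p after its place in the hairpin, the ratios of the abundant arms are mostly small, such as -0.11 for mir-191-5p in heart, and the largest values come from arms with few reads.

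The unadjusted edgeR list held 4 further arms beside mir-146a-5p, mir-369-5p and mir-376b-3p. mir-192-5p, an epithelial miRNA abundant in liver and kidney, was the deepest of them. Its scaled read count was 158 in BN-Lx liver and 106 in SHR liver, and 69.6 against 47.0 in kidney. Brain, heart and testis were also lower in SHR, but spleen was higher by 0.28 on the log2 scale. The estimate was -0.40 (SE 0.13, 95% interval -0.69 to -0.11, edgeR adjusted p 0.997), and the exact permutation p over the 6 pairs was 0.09375. The estimate was positive in the further livers, 0.40. mir-183-3p, mir-181b-1-3p and mir-344b-2-3p, with estimates of -2.46, -1.68 and 2.33, had 0 reads in a library of at least 1 tissue.

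Arms singled out by name in the liver comparison of the study were followed over all tissues. The study chose them with its own test from livers that included the liver pair and the further livers. Their direction in the further livers is therefore not an independent second look. The study also reported mir-34a higher in SHR liver by qRT-PCR on the same RNA samples. mir-34a-5p, a direct target of p53 that restrains proliferation, lay on different sides in different tissues. BN-Lx had 6921 reads in brain, 237 in liver, 2553 in spleen, 202 in heart, 72 in testis and 537 in kidney. SHR had 5135, 1133, 1760, 3218, 21 and 259 reads. SHR was thus clearly higher in liver and heart, level in brain and spleen, and lower in testis and kidney. The log2 ratios were 2.15 in liver, 3.33 in heart, -0.098 in brain, 0.099 in spleen, -1.94 in testis and -1.30 in kidney. The average over the pairs was 0.30 (95% interval -1.06 to 1.67), and the exact permutation p was 0.59375. Among the further livers mir-34a-5p differed by 1.70 (SE 0.43, 95% interval 0.51 to 2.88, edgeR adjusted p 0.304), in the direction of the liver pair.

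mir-742-3p and mir-741-3p, X-linked testis miRNAs, had most of their reads in testis among the 12 libraries, with 605 against 800 and 271 against 507 reads. Outside testis, BN-Lx kidney held 42 reads of mir-742-3p and 103 of mir-741-3p, and no other of the 12 libraries had more than 8. Their estimates over 6 tissues, -0.28 and 0.041, had intervals of -2.64 to 2.08 and -3.24 to 3.32. mir-293-5p, of an early embryonic cluster, had 20 reads in the 12 libraries and was not tested. Among the further livers mir-742-3p had 10 and 139 reads in the BN-Lx rats, against 0 and 4 in the SHR rats, with an estimate of -6.27 (95% interval -11.8 to -0.70, edgeR adjusted p 0.316). mir-741-3p had 15 and 70 reads there, against 0 and 2, with an estimate of -6.36 (95% interval -10.6 to -2.13, edgeR adjusted p 0.304). mir-293-5p had 0 and 1 reads, against 12 and 17, and was not tested. BN-Lx was thus the higher strain in these livers for the first pair of arms and SHR for mir-293-5p, with no overlap. These livers were among those from which the study chose the arms.

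Of the arms with most reads in lists of cell type or family miRNAs, 0 passed the adjusted threshold, and the 95% intervals bound their size. mir-122-5p, the main miRNA of hepatocytes, had an estimate of -0.0049 (95% interval -0.32 to 0.31), and its liver reads were 124614 against 161586. mir-145-5p, of smooth muscle, gave -0.17 (95% interval -0.52 to 0.17) and was lower in 5 of 6 tissues. mir-29a-3p, which represses collagen mRNAs, gave -0.12 (95% interval -0.53 to 0.29). mir-126-3p, of endothelium, gave 0.0069 (95% interval -0.43 to 0.44), and mir-451-5p, of red cells, gave -0.17 (95% interval -0.74 to 0.40) with a lower value in 5 tissues.

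mir-21-5p, known to increase in growth, injury and inflammation, owed its spread to brain. It had 4193 reads in BN-Lx brain against 285 in the SHR library, a log2 ratio of -3.55, while in the other tissues the ratio was between -0.10 and 0.95. The estimate over the pairs was -0.23 (95% interval -1.16 to 0.70), and without the brain pair it was 0.26.

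**Figure D3:**
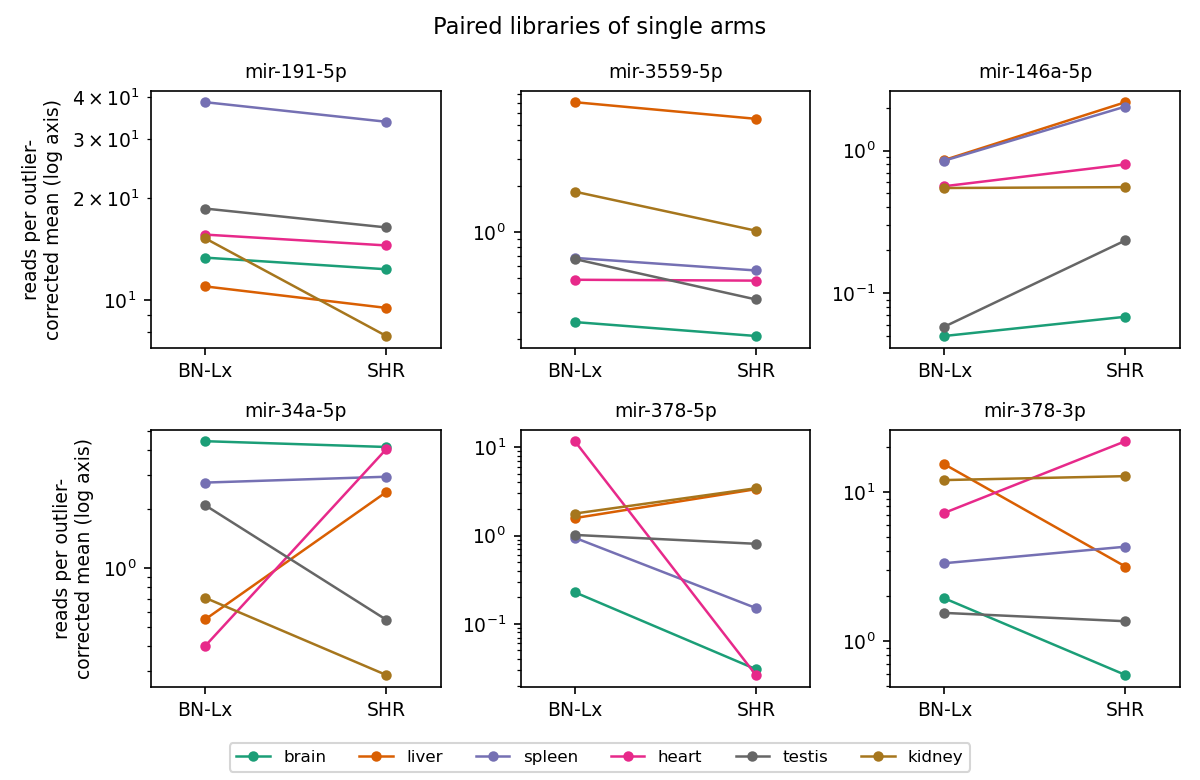
Scaled read counts (log10 axis) of mir-191-5p, mir-3559-5p, mir-146a-5p, mir-34a-5p, mir-378-5p and mir-378-3p in BN-Lx and SHR, with a line joining the pair of each tissue. SHR is lower in all 6 lines of mir-191-5p, most in kidney, and higher in all 6 of mir-146a-5p, the lines of mir-34a-5p cross, and the heart line of mir-378-5p runs from 11.7 in BN-Lx to 0.026 in SHR.

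Groups of related miRNAs varied in the same way, and 0 arms of any list were called. Apart from the early embryonic mir-290 cluster, with reads on 7 arms and 0 tested, the lists had 2 to 63 tested arms, and each median lay within 1 log2 unit of 0. Of the 30 neuronal arms tested (mir-124, mir-9, mir-128, mir-138 and others), 22 had negative and 8 positive estimates with a median of -0.25, and 3 (mir-138-1-5p, mir-138-2-5p and mir-9-3-3p, all with divided reads) were lower in all 6 tissues, against 1.75% of all arms. The summed level of the whole neuronal list went the other way in brain, where the log2 ratio was 0.34, and was between -0.58 and -0.11 in the other tissues. The mir-30 family had 9 positive and 1 negative of 10, with a median of 0.17, and the let-7 family 13 positive and 7 negative, with a median of 0.21. The mir-15 and mir-16 family, which restrains the cell cycle, had 3 positive and 7 negative, with a median of -0.23. These medians stand against -0.0065 for all tested arms, and no test was made of a list. Paralogs with divided reads count more than once in them. The sums of these 3 families went both ways. That of mir-30 was lower in SHR in brain, heart and testis (-0.30, -0.15 and -0.32) and higher in the other tissues. That of let-7 was lower in brain and liver (-0.28 and -0.035) and higher elsewhere. That of mir-15 and mir-16 was lower in brain, spleen and kidney and higher elsewhere.

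Brain gave some of the widest gaps of single tissues, in miRNAs of epithelia and sensory cells. The arms described from here on were chosen for the size of their difference among arms with at least 200 reads in a tissue pair and at least 10 in each library. They rest on 1 library per strain and have no test. mir-200a-3p, of the mir-200 family that maintains epithelial identity, had 1531 reads in BN-Lx brain against 35 in the SHR library, 34.7-fold lower in SHR. mir-183-5p had 312 against 11 reads and mir-182 had 720 against 27, 22.5-fold and 21.2-fold lower, both from a cluster of sensory organs. The summed mir-200 family held 2228 against 41 reads in brain, and the group of mir-96, mir-182 and mir-183 held 1096 against 40. In kidney the summed mir-200 family was higher in SHR, with 4042 reads in BN-Lx against 19277, and in spleen it held 158 against 267. It was nearly level in liver and heart, with log2 ratios of 0.078 and 0.14, and testis held only 5 against 10 reads. The neuronal miRNA mir-124 had 27457 against 57616 reads in these brain libraries, but mir-9 went the other way, with 8101 against 4041. mir-128 was nearly level, with a log2 ratio of 0.083. The part of such differences in the gaps was not tested.

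**Figure D4:**
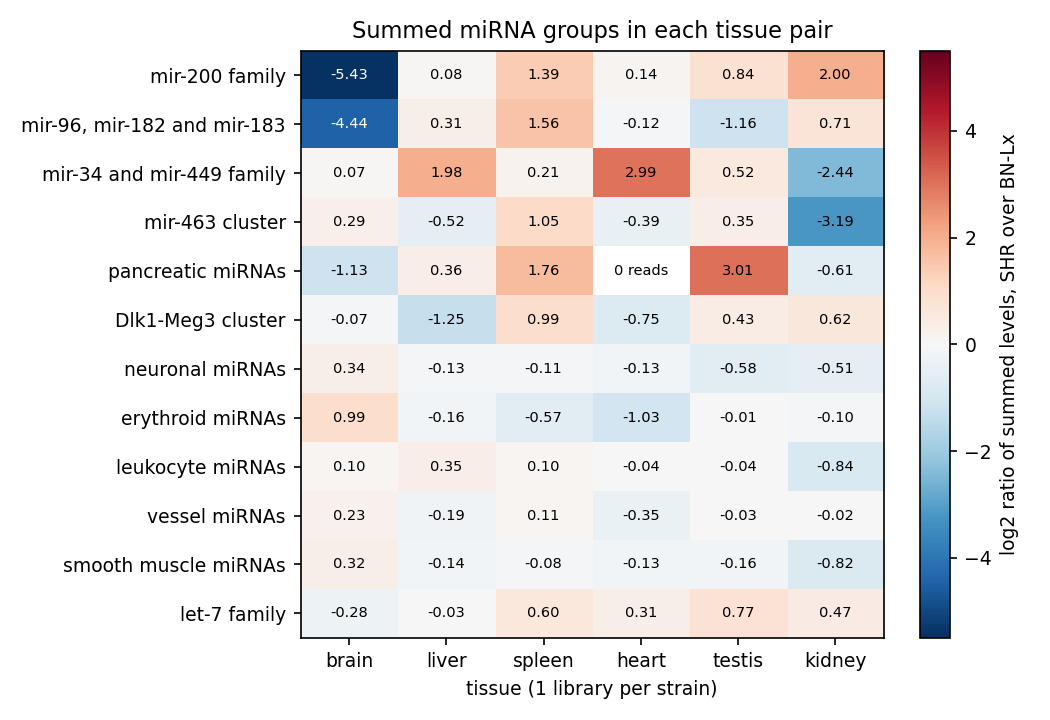
Log2 ratio of SHR to BN-Lx of the summed scaled read counts of miRNA groups (rows) in each tissue (columns). The mir-200 family stands at -5.43 in brain and 2.00 in kidney, and the mir-34 and mir-449 family at 1.98 in liver, 2.99 in heart and -2.44 in kidney, while the 3.01 of the pancreatic miRNAs in testis rests on 2 reads in BN-Lx against 18 in SHR and their heart cell has 0 reads.

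Heart held the widest gap of all. mir-378-5p, of a hairpin with a role in energy metabolism, had 5890 reads in BN-Lx heart against 21 in the SHR library, 445-fold lower in SHR. The other arm of the same hairpin, mir-378-3p, went the other way, with 3641 against 17506 reads. Across tissues the log2 ratio of mir-378-5p was -2.90 in brain, 1.09 in liver, -2.64 in spleen, -8.80 in heart, -0.33 in testis and 0.95 in kidney. For mir-378-3p it was -1.71, -2.28, 0.37, 1.60, -0.19 and 0.087. The most frequent mir-378-5p read covered bases 4 to 25 of the deposited hairpin in all 12 libraries and made up 69.2% to 96.8% of the reads of the arm. In the further livers mir-378-3p had a log2 difference of 0.010 (95% interval -0.72 to 0.74), against -2.28 in the liver pair.

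Heart also held more of the less abundant arms of the widely expressed mir-30 family in SHR. mir-30e-3p had 10.5 reads in BN-Lx against 238.5 in SHR and mir-30a-3p had 11.5 and 217.5, while the abundant mir-30e-5p and mir-30a-5p arms differed by -0.21 and -0.25 on the log2 scale. In liver the same 3p arms ran the opposite way, with log2 ratios of -4.03 and -3.81 and 5p ratios of 2.27 and 1.51. In the further livers the estimates of the 3p arms were 0.92 (95% interval -3.03 to 4.87) and 0.28 (95% interval -4.13 to 4.68). Rats of the same strain differed widely there. Scaled read counts of mir-30e-3p were 0.29 and 0.013 in the BN-Lx rats and 0.32 and 0.23 in the SHR rats. Those of mir-30a-3p were 0.43 and 0.023 in the BN-Lx rats and 0.088 and 0.44 in the SHR rats. The SHR library of the liver pair had been amplified over 17 PCR cycles and the BN-Lx library over 14, and the part of this in the liver gaps was not tested.

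Kidney showed gaps in both directions. mir-130a-3p, of a family active in vessels and blood cells, had 60 reads in BN-Lx against 2109 in SHR, 29.5-fold higher in SHR, with 176 against 120 reads on its other arm. mir-322-3p, of the mir-322 and mir-503 cluster on the X chromosome, had 3253 against 284 reads, 13.6-fold lower in SHR, with 444 against 454 on the 5p arm. mir-34c-5p, a ciliated and germ cell miRNA, had 1151 against 124 reads, 11.1-fold lower. The same kidney pair differed in testis-specific arms, since the mir-463 cluster held 414 against 54 reads on 22 and 6 of 30 arms, and the part of these testis reads in the mir-34c-5p gap was not tested. mir-194-1-5p, an epithelial miRNA of kidney and gut, had 92.5 against 885 reads, a log2 ratio of 3.01. Some of its reads were divided between hairpins, and all mir-194 arms summed had 566 against 2586 reads, a log2 ratio of 1.94.

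In testis the largest gap was mir-463-5p, an X-linked germ cell miRNA, with 264 reads in BN-Lx against 916 in SHR, 3.11-fold higher, and the other top arms differed by at most 2.51-fold. In spleen, mir-378-5p had 883 against 91 reads and mir-211-5p 486 against 94. In liver, mir-199a-3p, of fibroblasts, had 791 against 46 reads, but in the further livers its difference was -0.15 (95% interval -0.85 to 0.55). mir-342-3p, a miRNA of lymphocytes, had 37 against 261 liver reads, 6.56-fold higher in SHR, and an estimate of 1.08 in the further livers (95% interval 0.35 to 1.82, edgeR adjusted p 0.304). Of 26 arms over 2-fold apart in the liver pair and tested in the further livers, 12 lay on the same side there. Of these, 3 were again over 2-fold apart. Among all 181 arms of the liver pair compared in this way, 110 (60.8%) lay on the same side.

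Across tissues the share of arms that differed over 2-fold between strains, among those with at least 50 reads in the pair, ran from 11.7% in testis to 24% in kidney. Over the 101 arms read deeply in all libraries, the log2 ratios of one tissue showed little relation to those of another, with a Pearson correlation between -0.195 and 0.318 for the pairs of tissues and a median of 0.016, where each tissue is 1 pair of libraries and the arms share its scaling. Of these arms 53 (52.5%) stayed within 2-fold in all 6 pairs. mir-23b-3p, mir-23a-3p and mir-33-3p were the steadiest, with no log2 ratio beyond 0.27 in size, and mir-99a-5p and mir-26b-5p came next.

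The balance of the arms of a hairpin was called different between strains in 0 hairpins. Of 233 hairpins with at least 10 reads on each arm over the libraries, 0 passed 0.05 in the edgeR test of arm by strain (0%), and 6 (2.58%) had an unadjusted p under 0.05. limma on the log2 ratio of the arms called 0 as well, with 17 unadjusted. The smallest adjusted p, 0.147, belonged to mir-181b-2, whose 3p arm had 38 reads in BN-Lx against 1 in SHR and whose 5p reads are shared with mir-181b-1. With paralogous arms summed the smallest adjusted p was 0.878. Within single tissues, of 304 hairpin and tissue pairs with enough reads on each arm, 129 (42.4%) had arms on opposite sides and 34 were over 4-fold apart. Opposite sides were found in 42 of 110 hairpins in brain, 18 of 36 in liver, 24 of 55 in spleen, 18 of 37 in heart, 2 of 8 in testis and 25 of 58 in kidney. Some of these had 1 arm near 0, such as mir-126 in spleen at 0.61 and -0.0019. Paralogs with divided reads, such as the mir-124 hairpins in brain, were counted more than once. The share was not set against that of unrelated arms.

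**Figure D5:**
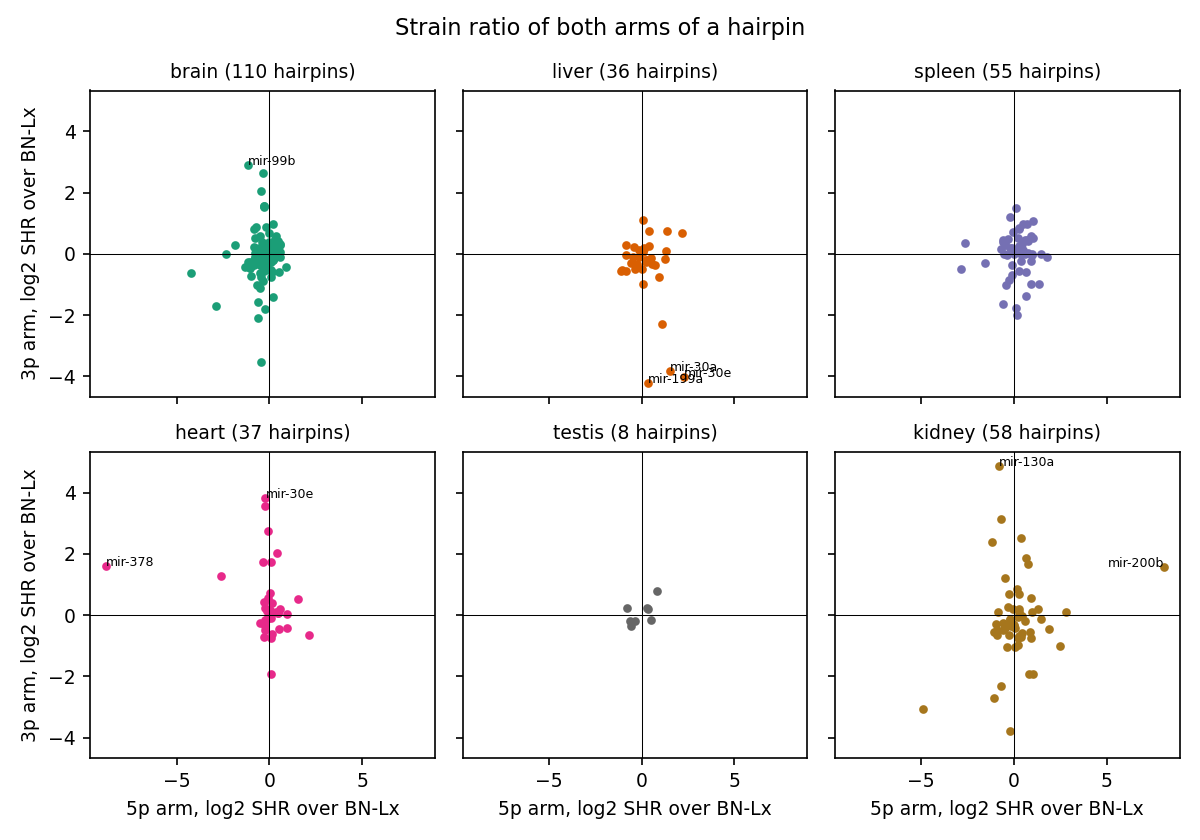
Log2 ratio of SHR to BN-Lx of the 3p arm (y axis) against that of the 5p arm (x axis) for hairpins with reads on both, by tissue. In heart the mir-378 hairpin lies at -8.80 and 1.60, and in kidney the mir-130a hairpin at -0.81 and 4.88.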

How the data were processed

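Per the labels and the methods of the study, small RNA of whole adult male organs (Ambion mirVana kit) was converted into SOLiD libraries with 14 PCR cycles, except for 16 in both testis libraries and 17 in SHR liver. The authors mapped the reads with SHRiMP to hairpins of the rat genome RGSC3.4, a Brown Norway genome, kept perfect matches and divided a read evenly among hairpins it matched, so the deposited values are estimated counts per read position, and reads that differ from this genome are lost. The mature sequences printed are those of RefSeq and not of these reads.

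Estimated counts were summed per hairpin and arm and rounded for the count test. Of 392 hairpins, 298 were joined to a miRNA by name, 34 by equal reads (at least 5, within 1 read) and 60 kept the name of the files, with 220 reads. The main test was edgeR 4.0.16 (TMM, filterByExpr, quasi-likelihood, terms for tissue and strain, Benjamini-Hochberg at 0.05) in R 4.3.3, and the balance of arms was tested by its arm by strain term. limma 3.58.1 and DESeq2 1.42.0 were alternatives, beside other scalings, filters, thinning and leaving out a pair. Scaled read counts follow the outlier-corrected mean. The residual degrees of freedom were 5, and an exact permutation over 64 sign patterns of the 6 pairs cannot go below 0.03125. The tests were checked on simulated counts. Arms were named if called, if on one side in all 6 tissues with at least 10 reads per library, if singled out in the liver comparison of the study, or if most abundant in 8 lists of cell type or family miRNAs. These members and lists were chosen with earlier results of these data known. Depth varied between libraries, with testis the shallowest, and low counts limit the ratios there.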

Additional observations from a re-analysis of the deposited data

Results flagged for a closer look

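Within 22 arms, each with 6 tissue ratios, 5 had a single tissue far from the rest. The rule passes about 1 in 20 by chance only for independent arms whose ratios have equal spread. These ratios rest on very different read counts, and the mir-664 arms repeat the same reads. The count was therefore not set against that rate. The log2 ratio of SHR to BN-Lx of mir-191-5p was -0.962 in kidney, with the next lowest tissue at -0.212. For mir-223-3p it was -0.916 in kidney, with the next lowest at 0.0300, on 2783 reads in BN-Lx and 1757 in SHR. For mir-21-5p it was -3.55 in brain, with the next lowest at -0.102. For mir-664-1-3p and mir-664-2-3p, which hold the same divided reads, it was 2.01 in testis, on 1 read in BN-Lx and 4.5 in SHR, with the next highest at 0.708.

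Tissues pointed in opposite directions for many arms, and 2 of the arms described are given. mir-34a-5p had a log2 ratio of 3.33 in heart and -1.94 in testis, and mir-378-5p had 1.09 in liver and -8.80 in heart. With 1 library per strain and tissue these differences were not tested.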

How the results depend on the processing

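Of 743 alternative values, 691 kept their direction and stayed within the spread or threshold, 35 changed sign and 17 moved. The count of called arms stayed at 0 in all alternatives for strain and for the balance of arms, including the fits without the tissue block, where the pairing is ignored and the spread between tissues enters the error, so that a count of 0 there says nothing about the pairing. In the further livers, which share replicate numbers, the replicate block called 0 of 303 arms.

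The 17 arms on one side became 8 higher and 7 lower on total reads and 8 and 6 with TMM over 12 libraries. With TMM within each pair they were 9 and 6. mir-191-5p left the lower side with TMM over 12 libraries and mir-3559-5p with total reads. The count was 2 with at least 10 reads in each library. It had a median of 5 over 25 draws thinned to the shallowest library (medians of 2 higher and 4 lower taken separately). It was 25 to 37 when a pair was left out and only the other tissues had to match. Of the 2 named arms, 0 kept their side in the further livers, 1 did after scaling by the outlier-corrected mean, and 7 of 13 did when all arms on one side were taken, an alternative added after the data were seen.

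Sign changes occurred for estimates near 0 or resting on a single tissue. mir-741-3p (0.041) was -0.085 with DESeq2 size factors, -0.079 with total reads, -0.085 with the outlier-corrected mean, -0.074 with TMM in each pair, -0.011 without a filter, -0.15 with limma and -0.039 after thinning. mir-742-3p was 0.10 with DESeq2. mir-126-3p was -0.039 without a filter, -0.0018 with DESeq2 and -0.18 without the tissue block. mir-122-5p was 0.0015 with DESeq2 size factors, 0.0084 with total reads, 0.12 with at least 10 reads in each library, 0.033 with DESeq2, 0.019 with paralogs summed and 0.32 without the block. Without the block mir-21-5p was 0.145 and mir-29a-3p was 0.13. Leaving out a pair gave ranges of -0.97 to 1.43 for mir-741-3p, -1.09 to 0.84 for mir-742-3p, -0.27 to 0.78 for mir-34a-5p, -0.41 to 0.0067 for mir-451-5p, -0.071 to 0.091 for mir-126-3p, -0.50 to 0.26 for mir-21-5p, -0.10 to 0.11 for mir-122-5p and -0.24 to 0.049 for mir-29a-3p. The cause was not tested. mir-34a-5p was negative without liver and without heart, and mir-451-5p reached its positive values without spleen or heart.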

Other observations

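Blood and vessel miRNAs give a view of what else the organs held. The red cell miRNAs mir-144 and mir-451, summed, had 2210 reads in the BN-Lx brain library against 3481 in that of SHR. This was a log2 ratio of 0.99 after scaling. In heart they had 10315 against 7983 reads, a log2 ratio of -1.03. Most of these reads were of mir-451. mir-144 alone had a log2 ratio of 0.74 in brain but 0.11 in heart, where 146 reads stood against 250. The vessel miRNAs (mir-126, mir-221 and mir-222) differed by -0.35 in heart to 0.23 in brain. The smooth muscle miRNAs mir-143 and mir-145 were at 0.32 in brain and -0.82 in kidney, and between -0.16 and -0.081 in the other tissues.

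The mean length of reads on hairpin arms was shorter in SHR in 4 of 6 tissues. The mean difference was -0.042 nt (SD 0.084, n = 6 pairs), with an exact sign-flip permutation p of 0.281, two-sided.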
